A study of Mus musculus with 4 samples.

Results

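Distal intergenic peaks are regions enriched by the IP of a tagged thyroid hormone receptor in mouse striatum, far from any annotated protein-coding gene. A peak was taken as distal when its summit lay on an autosome, outside every RefSeq protein-coding gene, more than 30 kb from every coding gene end, and neither inside nor within 1 kb of a long non-coding RNA (lncRNA) gene. The rule uses position only. It was met by 1057 of the 7412 autosomal peaks, 14.3% (95% exact Clopper-Pearson interval 13.5 to 15.1), in a list of 7484 peaks. The other 6355 autosomal peaks comprised 4423 inside coding genes, 1625 between genes within 30 kb of a coding gene, and 307 that were as distant but lay at a lncRNA gene.

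The study immunoprecipitated GS-TRα1, the thyroid hormone receptor alpha 1 carrying a tag named GS, from the striatum of mice named Gad2CrexThraGS. Gad2-Cre is a driver line for GABAergic neurons, so the tagged receptor is meant to come from those cells. The labels used here give no age, sex, hormone status or number of animals, nor do they say whether the fractions came from separate animals. The 4 libraries were 1 input, with no antibody, and 3 IP fractions recovered on IgG-coated magnetic beads, and the design sets IP against input to ask where the receptor sits on chromatin. One peak list for all fractions was analysed, without a value per library, so the spread between fractions is unknown and no test across samples could be made. No IP from untagged animals was used here, so receptor binding was not separated from recovery of chromatin by the beads. Intervals below are 95% intervals over peaks and cover counting error only.

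TRα1 is a nuclear receptor that binds response elements in DNA, often paired with a retinoid X receptor, and can sit there with or without hormone. Such elements are found in promoters and also in enhancers, which can act on genes across long distances and over the heads of nearer genes. The nearest coding gene on each side of a peak is therefore given below as its address, not as its target. GABAergic projection neurons make up most neurons of the striatum.

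The genome sequence of the peaks was not used here, and the sequences that can be shown are those of annotated small RNA genes that distal peaks cover. These are the only 2 microRNA genes with a distal peak over them, and they are shown because their products are known by sequence. The mature sequences, from RefSeq on GRCm38.p6, have the seed (bases 2 to 8) in capitals, and in the Mir1983 hairpin capitals mark the tRNA gene n-TItat14 that lies within it.
mmu-miR-129-5p: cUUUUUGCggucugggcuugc
mmu-miR-1983: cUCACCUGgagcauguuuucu
Mir1983 hairpin: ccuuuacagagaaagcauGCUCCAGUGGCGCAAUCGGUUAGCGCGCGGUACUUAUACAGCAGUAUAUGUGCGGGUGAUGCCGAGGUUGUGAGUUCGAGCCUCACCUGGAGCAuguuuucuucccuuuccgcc

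The peak at Mir129-1, at 29022122 to 29022687 of chromosome 6, was enriched 18.1-fold. Fold enrichment is the authors' ratio of the pileup of fragments at the summit, 61.0 here, to the local background, 2.44 here, with 1 added to each. Mature miR-129-5p, a microRNA abundant in brain, is encoded at 29022624 to 29022644 on the plus strand, inside the peak, and the summit was 170 bp from the hairpin. The flanking coding genes were Lep, the leptin gene, at 37.8 kb and Snd1, a nuclease-domain coactivator gene, at 87.3 kb. The peak at Mir1983, at 21896888 to 21897321 of chromosome 13, reached a fold of 6.64, with its summit 221 bp from n-TItat14, an isoleucine tRNA gene. Its flanking genes were Zfp184, a zinc finger gene, at 47.8 kb and the histone gene H4bc24 at 59.7 kb. The pair of seeds printed above differ, and these peaks share no flanking gene.

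Distal intergenic peaks were sparse for the territory open to them. The rule allows 837 Mb, 34.9% of the autosomes, and the 1057 peaks gave 1.26 per Mb (exact Poisson interval 1.19 to 1.34). The rest of the autosomes held 4.06 per Mb (3.96 to 4.16), so distal territory had 0.311 of that density (0.291 to 0.332). Coding gene spans held 4.50 per Mb and intergenic sequence within 30 kb held 3.55. Among peaks more than 30 kb from coding genes, those at lncRNA genes were denser, with 2.47 per Mb (2.20 to 2.76). Distal density was below that of the remaining sequence on each of the 19 autosomes, with ratios from 0.215 on chromosome 17 to 0.641 on chromosome 9.

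The density was level up to 200 kb from a coding gene and fell beyond. From 30 to 50 kb it was 1.75 per Mb (180 peaks, interval 1.500 to 2.02), from 50 to 100 kb 1.67, and from 100 to 200 kb 1.64, and these intervals overlap. It was 1.15 per Mb from 200 to 500 kb (interval 1.01 to 1.30). Beyond 500 kb it was 0.454 (0.362 to 0.561), from 85 peaks in 187 Mb. Distance is tied to gap length, since a site over 500 kb from the coding genes on both sides lies in a gap over 1 Mb. Density by distance within gaps of like length was not worked out. The median distal peak lay 125 kb from its nearest coding gene, with quartiles of 62.6 and 249 kb, and 622 had no coding gene within 100 kb.

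**Figure D1:**
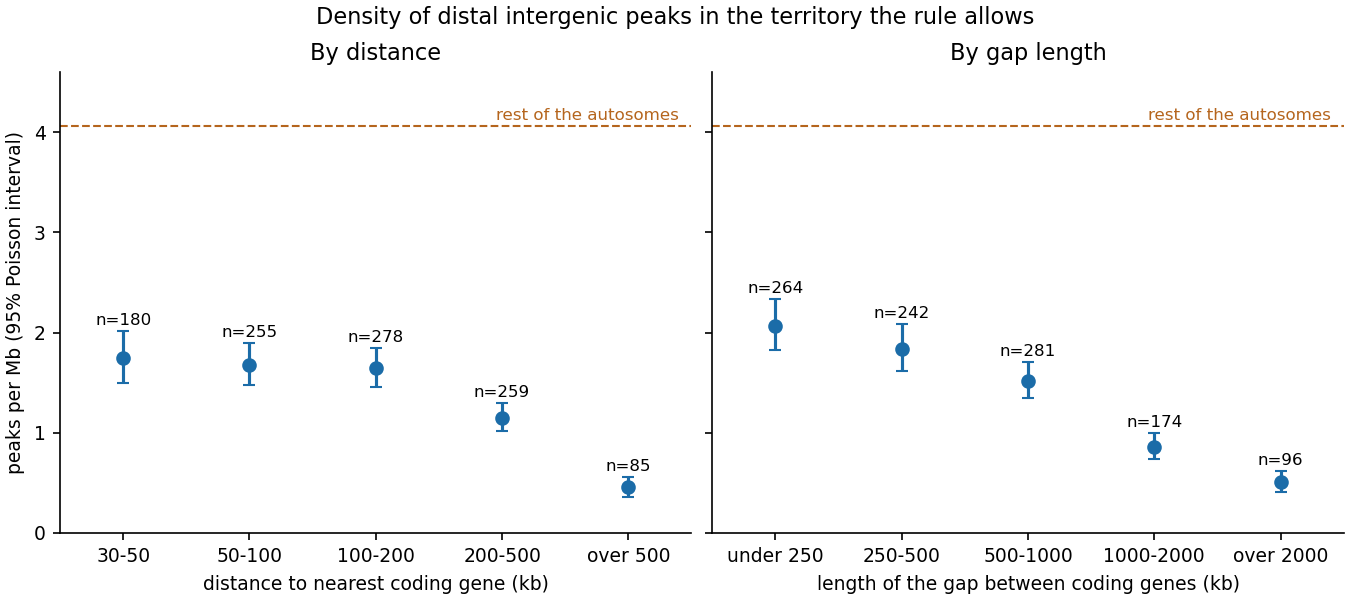
Distal intergenic peaks per Mb of allowed territory (y axis, with exact 95% Poisson intervals) by distance to the nearest coding gene and by the length of the gap between coding genes (x axes, kb). Density stays near 1.7 per Mb up to 200 kb and falls to 0.454 beyond 500 kb, and all bins lie under the dashed line at 4.06 per Mb for the rest of the autosomes.

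Gene deserts, taken here as gaps of at least 1 Mb between neighbouring coding genes, held fewer distal peaks per Mb than shorter gaps. They made up 46.9% of the allowed territory and held 270 of the distal peaks, 25.5% (22.9 to 28.3). Their density was 0.687 per Mb against 1.77 in shorter gaps, a ratio of 0.388 (0.337 to 0.446). By gap length it was 2.07 per Mb in gaps under 250 kb, 1.84 from 250 to 500 kb, 1.52 from 500 to 1000 kb, 0.856 from 1000 to 2000 kb and 0.506 in longer gaps. Of the 246 deserts, 104 held no distal peak. The longest empty one spans 4542 kb between Pcdh20 and Pcdh9, both protocadherin genes of cell adhesion. Of similar length, the 4511 kb between Celf4, an RNA-binding protein gene of neurons, and Pik3c3, a lipid kinase gene of autophagy, held 3 distal peaks. The 4420 kb between Olfm4 and Pcdh17 also held 3, one of them among the strongest described below. Pcdh9 and Pcdh20 were named here after their values were seen.

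In fold, distal intergenic peaks did not differ from other autosomal peaks beyond the error of the medians. In pileup their median was higher by the smallest unit of the scale, with an interval that reached 0 under most alternative settings. Their median fold was 7.06 (order-statistic interval 6.85 to 7.22) against 6.91 (6.85 to 7.05), a difference of 0.151 (−0.105 to 0.323). Median summit pileup was 22.5 (22.5 to 23.5) against 21.6 (21.6 to 21.6), a difference of 0.94 (0.94 to 1.88), where 1 step of the pileup scale is 0.939. In all, 261 distal peaks, 24.7% (22.1 to 27.4), reached a 10-fold enrichment, as 24% of all autosomal peaks did. A 20-fold enrichment was reached by 30 of them, 2.84% (1.92 to 4.03), beside 3.58% of all autosomal peaks. The −log10 q was at least 10 for 54.9% of them, beside 53.3% overall. Distal peaks were 2 of the 25, 11 of the 100 and 30 of the 250 strongest autosomal peaks by fold, where their share of all autosomal peaks was 14.3%.

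Strength did not follow distance. The median fold was 7.22 from 30 to 50 kb, 6.85 from 50 to 100 kb, 6.85 from 100 to 200 kb, 7.22 from 200 to 500 kb and 7.34 beyond 500 kb. Across the 1057 peaks, distance and fold had a Spearman rho of 0.00. The share with a fold of at least 10 ran from 22.7% to 27.8% over these distances and from 18.6% to 29.2% over the gap lengths, in no order. Beside the other position classes, the distal median of 7.06 stood between 6.85 inside coding genes and 7.17 for intergenic peaks within 30 kb, with 6.93 for distant peaks at lncRNA genes.

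**Figure D2:**
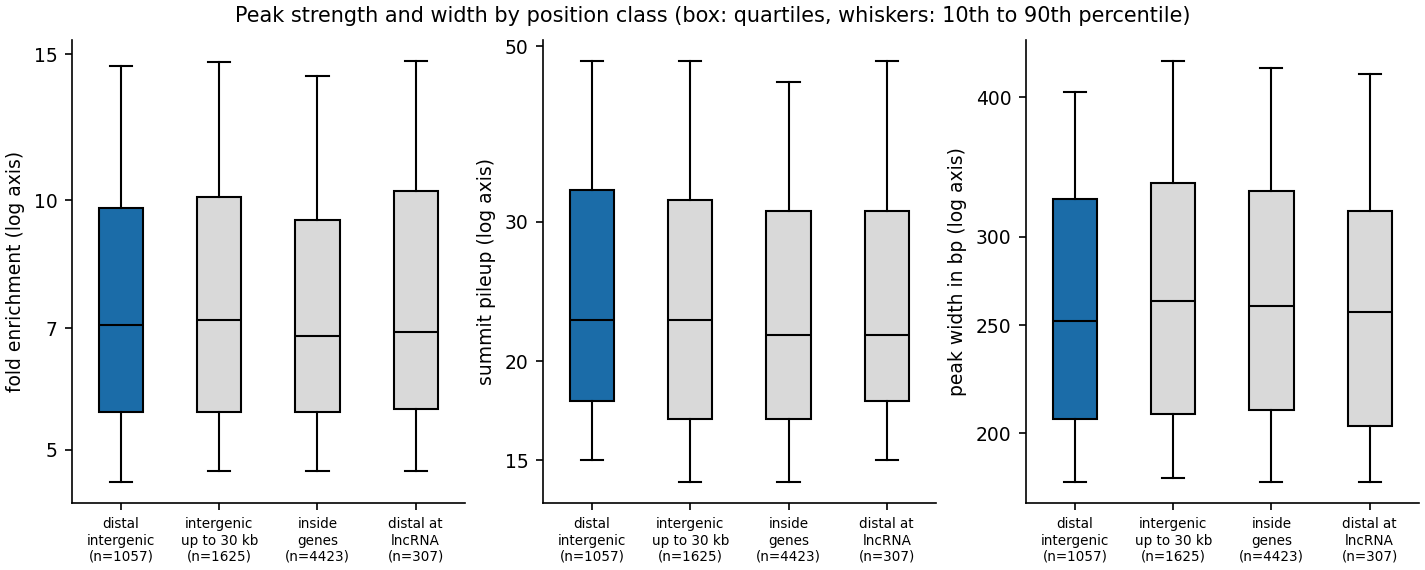
Fold enrichment, summit pileup and width in bp (log y axes) of autosomal peaks in 4 position classes, with the number of peaks under each box, boxes at the quartiles, a line at the median and whiskers at the 10th and 90th percentiles. The classes overlap almost wholly, with distal intergenic medians of 7.06 in fold, 22.5 in pileup and 252 bp in width.

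Distal intergenic peaks were slightly narrower. Their median width was 252 bp (248 to 259) against 261 bp (258 to 264) for other autosomal peaks, a difference of −9 bp (−14 to −1.38), and widths ran from 174 to 874 bp. Width rises with height in both sets, with a Spearman rho between width and pileup of 0.62 and 0.63, so widths were also compared at like pileup. In the lowest of 4 classes of pileup, split at the quartiles of all autosomal peaks, the medians were 199.5 and 204 bp, with overlapping intervals. In the second class they were 221 bp (217 to 228) and 231 bp (228 to 234). In the third they were 259 bp (251 to 270) and 277 bp (272 to 281), and in the highest 333 bp (326 to 343) and 350 bp (344 to 356). Distal peaks were thus the narrower set in each of the 4 classes, with intervals that do not overlap in the upper ones and touch at 228 bp in the second. The local background had a median of 2.00 in both sets, with an upper quartile of 3.00 for distal and 2.61 for other autosomal peaks, and it was at its floor for 32.5% and 35.4%. By class of pileup, the median background of distal and other peaks was 1.91 and 1.93, 2.00 and 2.00, 2.09 and 2.00, and 2.09 and 2.04. Median folds were equal in the lower classes, 8.15 and 8.47 in the third and 13.0 and 13.2 in the highest. Whether background bears on the widths was not tested.

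**Figure D3:**
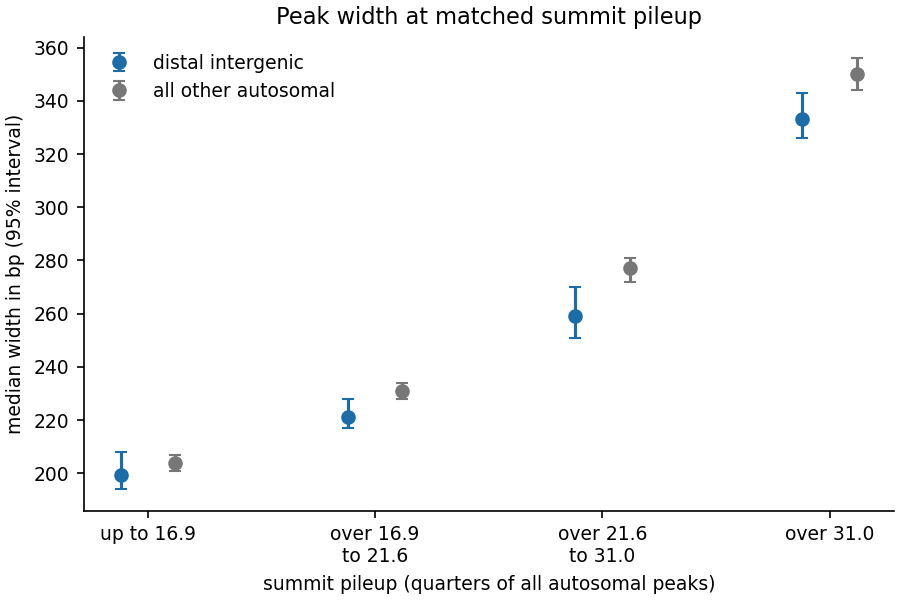
Median peak width in bp (y axis, with 95% order-statistic intervals) of distal intergenic and other autosomal peaks within 4 classes of summit pileup split at the quartiles of all autosomal peaks (x axis). Distal peaks are narrower in each of the 4 classes, by the widest margin at pileups over 21.6.

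A pair of distal peaks stood well above the rest. The strongest, at 110373233 to 110373733 of chromosome 12, reached 54.0-fold, from a pileup of 155 where the background was 1.89. This peak lay 92.4 kb from Dio3, the gene of the deiodinase that inactivates thyroid hormone, and 73.6 kb from Ppp2r5c, a regulatory subunit gene of protein phosphatase 2A. A second distal peak with a fold of 7.82 lay 94.1 kb from Dio3. The next, at 28859707 to 28860277 of chromosome 5, reached 53.7-fold with a pileup of 154. It lay 393 kb from Shh, which encodes the morphogen sonic hedgehog, 333 kb from Rnf32, a RING finger protein gene, and 1.61 kb from the nearest lncRNA gene, just outside the margin of the rule. A companion with a fold of 13.3 lay 418 kb from Shh. These peaks ranked 2 and 3 by fold among all autosomal peaks, and the next distal peak ranked 35.

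The 23 following peaks of the top 25 had folds from 33.5 down to 21.8. They are given with both neighbours and loosely grouped by the function of a neighbour, which was not tested. The gene named first is not always the nearer. A fold of 33.2 lay 1218 kb from Kcnt2, a sodium-activated potassium channel gene, and 1772 kb from Cdc73, of the transcription elongation complex Paf1. A fold of 23.5 lay 537 kb from Grin2a, an NMDA receptor subunit gene, with 1810013L24Rik nearer, at 172 kb. Rasgrp1, a Ras guanine nucleotide exchange factor gene expressed in striatum, had a fold of 30.3 at 45.5 kb, with Thbs1, the thrombospondin 1 gene, 724 kb away. A fold of 33.5 lay 33.3 kb from Pwwp2b, a chromatin protein gene, and 88.6 kb from Inpp5a, which encodes a phosphatase of inositol phosphates.

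In the 4420 kb between Olfm4 and Pcdh17, Pcdh17, a protocadherin gene, was 3799.6 kb from a fold of 29.3 and Olfm4 was 621 kb from it. Cadm2, a synaptic adhesion gene, was 1849 kb from a fold of 24.3 with Speer2 nearer at 387 kb. Ntm, the neurotrimin gene, was 271 kb from a fold of 23.5, with the sorting nexin gene Snx19 at 192 kb. Ncam1, the neural cell adhesion molecule gene, was 645 kb from a fold of 26.0 that lay 50.3 kb from Plet1. A fold of 27.7 lay between Basp1, a growth cone membrane protein gene, at 96.6 kb and Myo10, a filopodial myosin gene, at 112 kb. Hs6st1, a heparan sulfate sulfotransferase gene, was 309 kb from a fold of 28.3, with Plekhb2 at 879 kb.

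Rbfox1, a neuronal splicing factor gene, had a fold of 22.5 at 31.6 kb, with Eef2kmt, a methyltransferase gene, on the far side. Celf2, another splicing factor gene, was 338 kb from a fold of 31.4, and Gata3, a transcription factor gene, was 2123 kb away. Tet2, which encodes a DNA demethylating dioxygenase, was 55.9 kb from a fold of 25.6, with Cxxc4 at 635 kb. Fbxw7, the substrate adaptor gene of a ubiquitin ligase, was 399 kb from a fold of 23.2, with Gatb at 195 kb. Between Nup35, a nucleoporin gene, and Zfp804a, a zinc finger gene, lay folds of 23.9 and 22.6 at 69.5 and 483 kb from Nup35.

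The gap between Tlr4, the receptor gene for bacterial lipopolysaccharide, and Brinp1, a neuronal gene, held folds of 32.6 at 48.3 kb from Tlr4 and 21.8 at 498 kb from Brinp1. Arl5b, a small GTPase gene, and Malrd1 flanked a fold of 27.7. Tafa5, a secreted neuronal protein gene, and Zdhhc25 flanked 22.9, and Hspa9, a mitochondrial chaperone gene, and Gm46617 flanked 23.6. Gm8882 and Prh1, a salivary protein gene, flanked 23.4, and Dph6, of diphthamide synthesis, and BC052040 flanked 21.8.

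Most gaps with a distal peak held a single one. Of 3848 gaps longer than 60 kb, which leaves room for the rule, 661 held a distal peak. In 438 of these it was alone, 123 gaps held 2, and 20 gaps held 5 or more with 116 peaks together. The gap with the most, 12, lies at the start of chromosome 9 before Alkbh8, a tRNA-modifying enzyme gene, and is described below. Fbxw7 to Gatb and Trib2 to Lpin1 followed with 7 peaks each. Trib2 encodes a pseudokinase and Lpin1 a phosphatidate phosphatase, and the gap of 719 kb between them held folds of 19.9 and 19.7, with the other 5 from 4.95 to 8.15. Eef2kmt to Rbfox1 held 6 in 629 kb, with folds of 22.5, 18.1, 10.7, 6.82, 5.87 and 4.40.

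Arpp21, which encodes a cAMP-regulated phosphoprotein enriched in striatum, and Pdcd6ip, an endosomal sorting gene, enclose 1415 kb that also held 6 peaks. Their folds, in order of distance from Arpp21, were 18.4 at 188 kb, 9.69 at 219 kb, 10.4 at 512 kb, 5.55 at 605 kb, 14.4 at 1012 kb and 6.35 at 1206 kb. These distal peaks were thus spread along the desert. Peaks within 30 kb of its ends are left out by the rule and were not counted here. Gaps with 6 peaks also lay between Plk2 and Actbl2, Eipr1 and Myt1l, and Agtr1b and Tbl1xr1, with highest folds of 16.3, 15.6 and 15.3. These tie with the last of the 5 fullest gaps and are named after their values were seen.

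**Figure D4:**
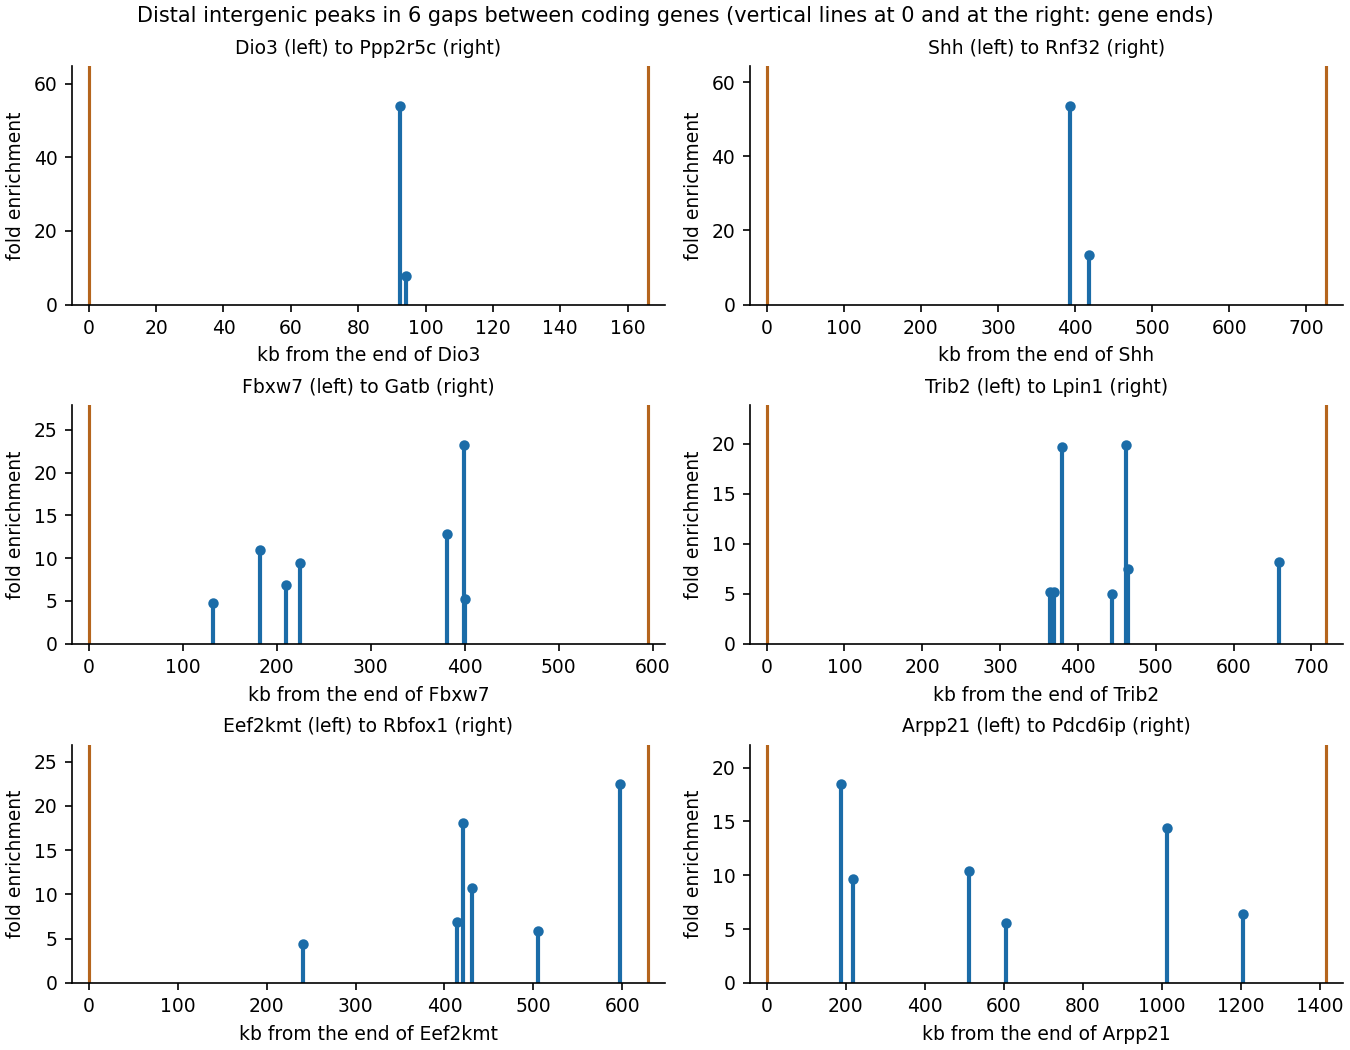
Distal intergenic peaks in 6 gaps, placed by kb from the end of the left gene (x axis) with the height of each stem giving the fold enrichment (y axis), and brown lines marking the ends of the genes on both sides. Single dominant peaks of 54.0 and 53.7 stand in the gaps of Dio3 and Shh, while the other 4 gaps hold 6 or 7 peaks with folds of 4.40 to 23.2.

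Close groups held a minority of the distal peaks. Of the distal peaks, 133 (12.6%) had another within 10 kb, and the median distance to the next distal peak was 260 kb. The 133 include 12 on chromosome 9 with a high background, described below. No such share was worked out for other autosomal peaks or for even spacing. There were 58 groups within 10 kb of each other, and 8 of them had 3 or more peaks. Besides the 12 on chromosome 9, a group of 3 lay from 38.8 kb outside Rasgrp1 and included its fold of 30.3, the lowest fold being 4.28. A group beside Cacng3, a gene of AMPA receptor trafficking named after its values were seen, spanned 2.35 kb at 52.2 kb from the gene with folds of 6.77 to 18.5. A group of 3 on chromosome 18 lay 226 kb from Dcc, the netrin receptor gene, with folds of 4.24 to 14.8.

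Genes were then viewed by function, through 15 lists of autosomal genes. A gene was counted when it was the nearest coding gene on either side of a distal peak, which held for 1227 of 20560 genes, 5.97%. The gene on the other side of the peak can be the nearer one. Genes beside long gaps have more room, so the peaks per Mb of allowed territory beside each list's genes are also given, with 1.26 per Mb for all genes. Since density falls with gap length, each list is also set beside the density of all distal peaks in gaps of like length, a comparison added after the values were seen. The lists were chosen with earlier results of these data known and carry no test.

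Thyroid hormone targets in brain flanked a distal peak in 6 of 25 cases, 24%, with 3.62 peaks per Mb (1.65 to 6.86), beside 1.75 in gaps of like length. Their 9 peaks had a median fold of 11.3, beside 7.06 for all distal peaks, with no interval computed. In the other lists with distal peaks the median fold ran from 4.71 for glutamatergic to 10.3 for microglia and vessel markers. Dio3 and Shh led the hormone targets with the folds of 54.0 and 53.7. Rora, a nuclear receptor gene of the clock and of cerebellar development, had a fold of 15.3 at 62.2 kb on chromosome 9. Klf9, a hormone-induced transcription factor gene, had a fold of 11.3 at 49.3 kb, at 23091795 to 23092100 of chromosome 19. Hr, the hormone-induced corepressor gene hairless, flanked none, its nearest distal peak being 1437 kb away beyond other genes.

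Receptors, coregulators and hormone supply genes flanked a distal peak in 4 of 20 cases, with 2.61 per Mb (1.35 to 4.55), beside 1.22 in like gaps. After Dio3, Tbl1xr1, which encodes a corepressor complex subunit, had 6 peaks with a highest fold of 15.3, and its nearest was 581 kb away. Thrb, the thyroid hormone receptor beta gene, had a fold of 7.50 at 503 kb in the gap it shares with Rarb, a retinoic acid receptor gene. Rxrg, a retinoid X receptor gene active in striatum, flanked 3 distal peaks of up to 6.85. Thra, the gene of the tagged receptor, flanked no distal peak, the nearest being 7509 kb away. Gad2, the GABA-synthesising enzyme gene whose locus carries the Cre, flanked none either, the nearest being 1359 kb away.

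Striatal projection neuron genes flanked a distal peak in 7 of 28 cases, 25%, with 2.28 per Mb (1.35 to 3.60), beside 1.46 in like gaps. Arpp21 had 7 peaks, counting the one on its other side. Drd1, the dopamine D1 receptor gene, had 3, the strongest at 165 kb with a fold of 13.5, a pileup of 39.4 and a width of 849 bp. Bcl11b and Foxp1, transcription factor genes of these neurons, had highest folds of 11.1 at 428 kb and 10.04 at 542 kb. Nearer to these peaks, on the other side, were Gm52008 at 370 kb and Gm765 at 40.9 kb. Clock genes did so in 4 of 24 cases with 2.40 per Mb (0.779 to 5.60), beside 1.37. After Rora came Arntl, which encodes BMAL1, with a fold of 8.37 at 83.1 kb. Its partner gene Npas2 had 6.52 at 158 kb and the repressor gene Cry1 had 6.20 at 115 kb.

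GABA synthesis, transport and receptor genes flanked a distal peak in 5 of 19 cases, with 1.59 per Mb (0.585 to 3.47), beside 1.27 in like gaps. Slc6a11, a GABA transporter gene, had a fold of 17.5 at 54.5 kb and the receptor subunit gene Gabra2 had 16.3 at 204 kb. Genes of GABAergic lineage and interneurons reached 8 of 23 with 1.33 per Mb (0.636 to 2.44), beside 1.22 in like gaps. Satb1, a chromatin organiser gene of interneurons, was 646 kb from a fold of 17.0 that lay nearer, at 123 kb, to the potassium channel gene Kcnh8. Zeb2, a homeobox gene, was 3506 kb from a fold of 11.6 that lay nearer to Acvr2a, and Dlx2 and Dlx6, homeobox genes of GABAergic fate, had 11.2 at 83.1 kb and 9.23 at 167 kb.

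Developmental transcription factor genes flanked distal peaks most often, in 31 of 59 cases, 52.5%, but with 1.29 peaks per Mb (0.964 to 1.69), close to the 1.26 of all genes and the 1.14 of like gaps. Of these, 57 stand beside a gap longer than 60 kb. After Gata3, high folds lay beside Lmo3 at 16.9 and Id4 at 15.6, both genes of neural differentiation. Axon guidance genes were similar, with 15 of 37 and 1.08 per Mb (0.746 to 1.505), beside 0.873. Among them were Slit2, a repulsive ligand gene, at 14.9, Dcc at 14.8, the semaphorin receptor gene Plxnc1 at 11.7 and the ephrin gene Efnb2 at 11.1.

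Cadherin and synaptic adhesion genes flanked distal peaks in 27 of 59 cases, 45.8%, at 0.516 per Mb (0.395 to 0.661). They border 120 Mb of the allowed territory and 62 of the peaks. Their gaps are long, and all distal peaks in gaps of like length had 0.727 per Mb, with 0.506 in gaps over 2000 kb. After Pcdh17, Cadm2 and Ntm came Cdh7, a cadherin gene, with a fold of 17.6. Voltage-gated potassium and sodium channel genes flanked distal peaks in 5 of 35 cases with 0.466 per Mb (0.151 to 1.09), beside 1.10 in like gaps. Besides Kcnh8 these included Kcnv1, 2215 kb from a fold of 11.9 that lay nearer to Csmd3, at 250 kb. Kcnh2 had 6.71 at 35.7 kb and Kcns3 had 6.59 at 215 kb.

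Markers of other cells of the brain gave 0 to 2 flanking genes per list, where 5.97% of coding genes at large flanked a distal peak. Exact intervals reached 38.5% for astrocyte, 27.3% for microglia and vessel and 42.8% for glutamatergic markers. All overlap the 9.36 to 45.1% of the hormone targets. Of coding genes beside gaps longer than 60 kb, 20.3% flanked a distal peak. Among such genes the shares were 0% for oligodendrocyte, 14.3% for astrocyte, 16.7% for microglia and vessel and 25% for glutamatergic markers. Oligodendrocyte markers did so in 0 of 14 cases, an exact interval of up to 23.2%, and they border 0.385 Mb of the territory. Gaps of like length had 1.88 per Mb. Astrocyte markers reached 1 of 12, Sox9, a glial transcription factor gene, with 3 peaks of up to 11.9. Microglia and vessel markers reached 1 of 18, Emcn, the endomucin gene of endothelium, with 5 peaks of up to 14.3. Glutamatergic neuron markers reached 2 of 14, among them Eomes, a T-box factor gene, at 4.71. Densities were 1.18 per Mb for astrocyte and 1.39 for glutamatergic markers, near the 1.26 of all genes and the 1.18 and 1.46 of their like gaps. Muscle and liver genes, included as an outside set, reached 1 of 20, Apob, an apolipoprotein gene, with 4 peaks of up to 9.10. Emcn and Apob gave 2.56 (0.831 to 5.97) and 2.11 (0.574 to 5.40) per Mb for their lists, values within the intervals of the hormone target and striatal lists. Gaps of like length had 1.33 per Mb for the microglia and vessel list and 0.541 for the muscle and liver list. Of the 15 lists, 11 had an interval that included the density of gaps of like length. The receptor and the muscle and liver lists lay above it, and the adhesion and channel lists below. These intervals count peaks as independent, though some share a gap. All 4 peaks of the muscle and liver list lay beside Apob, and 6 of the 12 of the receptor list beside Tbl1xr1.

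**Figure D5:**
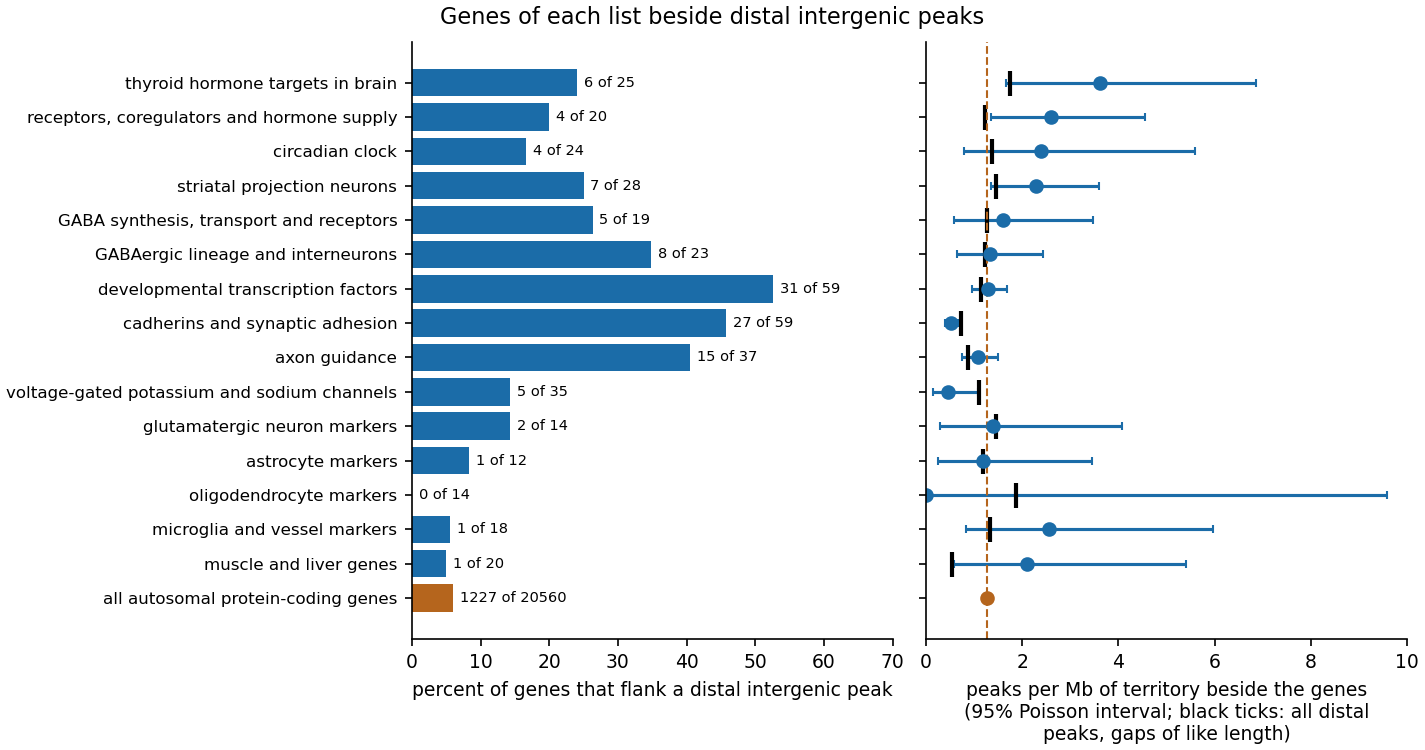
Left, percent of the autosomal genes of each list that flank a distal intergenic peak, with counts; right, distal peaks per Mb of allowed territory beside those genes with exact 95% Poisson intervals, a dashed line at 1.26 for all coding genes and black ticks for all distal peaks in gaps of like length. Developmental factors lead on the left at 52.5% but on the right lie near the line, and the interval of 11 of the 15 lists includes its tick.

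Which end of the nearest coding gene faced the peak could be read for 833 distal peaks with a strand for that gene. It was the 5′ end for 426, 51.1% (47.7 to 54.6), where 52.5% of the territory is nearest to a 5′ end. Among those with a fold of at least 20 it was 17 of 24, 70.8% (48.9 to 87.4), an interval that includes 52.5%.

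Of the 3 most remote peaks, 2 stood between the median fold of distal peaks, 7.06, and the upper quartile, 9.78. The third was among the weakest distal peaks. A fold of 8.78 lay 1769 kb from Cntnap5a, a neurexin-family adhesion gene, with Dsel on the other side. A fold of 7.50 lay 1745.5 kb from Pik3c3 in the desert it shares with Celf4, and a fold of 3.14, ranked 1039 of the 1057 by fold, lay 1509.7 kb from Got2, an aspartate aminotransferase gene, with Cdh8 beyond. The widest distal peak, 874 bp, had a fold of 12.05 and lay 253 kb from Rragc, a gene of the mTORC1 nutrient pathway, and 468 kb from Pou3f1, a POU factor gene. It was followed by 852 bp for the peak of 24.3 between Cadm2 and Speer2 and by the 849 bp beside Drd1, whose other neighbour is the homeobox gene Msx2.

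At the 30 kb boundary, folds overlapped on both sides. Just inside, peaks lay 30.03 kb from Ccnh, a cyclin gene, with a fold of 6.52, 30.05 kb from Slc22a23, a transporter gene, with 13.7, and 30.2 kb from Socs6, a cytokine signalling suppressor gene, with 5.97. Just outside, they lay 29.9 kb from Calb1, the calbindin gene of projection neurons, with 7.22, 29.8 kb from Zfp706 with 6.20 and 29.8 kb from Hmgxb4 with 5.97. The 62 distal peaks from 30 to 35 kb had a median fold of 7.66, a median pileup of 23.5 and a median width of 296 bp. The 63 intergenic peaks from 25 to 30 kb had 7.22, 20.7 and 262 bp. The median width was thus larger on the distal side here, unlike over all distal peaks, but so was the median pileup. No interval was computed for these medians, and their widths were not compared at like pileup.

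A small set of distal peaks stood on a very high local background. The background was over 4 times the lowest in the list, 1.89, for 18 distal peaks, 1.70% (1.01 to 2.68), where 0.351% of all autosomal peaks had such a background. Of these, 12 lay within 29.6 kb at the start of chromosome 9, from 3007940 to 3037522, with backgrounds of 116 to 208, pileups of 210 to 286 and folds of 1.38 to 1.81. They had the 12 highest pileups among distal peaks. Their folds were the lowest, together with that of a peak on chromosome 17 at 39844994, in the gap before Esp38, with a background of 56.4 and a fold of 1.75. What these places have in common was not tested. Chromosome 9 was the densest autosome for distal peaks, with 95 peaks and 2.77 per Mb (2.24 to 3.38), and stayed so at 2.42 per Mb without these. The remaining autosomes ran from 0.964 on chromosome 3 to 1.47 on chromosome 12. Without all 18, the density ratio was 0.306, the median fold 7.17 and the median width 252 bp. The pileup difference was then 0.94 with an interval of 0 to 1.88.

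Annotated genes of biotypes other than protein-coding and lncRNA were near few distal peaks. Within 1 kb of one lay 28 distal peaks, 2.65%, of which 19 were inside, and 1029 had no annotated gene of any kind within 1 kb. Beyond the microRNA genes above, they included 2 peaks in Igh, the immunoglobulin heavy chain locus, with folds of 7.50 and 4.71, and 1 of 4.95 in Igk, the kappa light chain locus. Tcra, the T cell receptor alpha locus, held 2 of 8.18 and 6.44. The 5 peaks in these antigen receptor loci, which encode protein chains, count as distal because the annotated biotype is not protein-coding. Pseudogenes of both kinds accounted for 14. Gm26159, an annotated snRNA gene on chromosome 16, was 250 bp from a summit with a fold of 17.5. These genes were named after their values were seen.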

How the data were processed

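The submitters' processing notes name GRCm38 and mm10 as builds, with the tools MACS2 2.1.1.20160309.0 and Bowtie2 2.3.4.2, but no settings. Pooling of IP fractions before peak calling is not stated in the sources. The authors deposited, per the file headers, each peak's width, summit, pileup signal, fold ratio, and −log10 q value. Pileups were multiples of 0.939, up to 305 steps, and width equalled end minus start plus 1 in 100% of peaks. Library sizes were not used here.

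Genes came from a RefSeq table of GRCm38.p6, without 328 records starting below 3 Mb, where no autosomal peak lies. Territory was counted on a 100 bp grid; unsequenced and repetitive bases were not taken out. Background was recovered as (pileup + 1) / fold − 1. Strand came from RefSeq promoter records of 16457 autosomal genes. The scripts for distances and density ratios were checked on simulated positions with known answers. Python 3.11.15, pandas 2.3.3, numpy 2.4.6, scipy 1.17.1 and matplotlib 3.10.9 were used.

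The members, lists and naming rule were chosen with earlier results of these data known. Named genes flank the 25 highest folds, the 3 farthest and 3 widest peaks, the 5 fullest gaps and the 30 kb boundary, with up to 4 members per list and Dio3, Klf9, Thra, Thrb, Hr and Gad2; a few genes the rule selects are not reported here. Alternatives changed the peak set, the distance, the lncRNA rule, the fold threshold and the desert length.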

Additional observations from a re-analysis of the deposited data

Results flagged for a closer look

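Chromosome X, which the autosomal rule leaves out, held 17 peaks that met the same position rule, of 69 on the chromosome. Their density was 0.200 per Mb (exact Poisson interval 0.117 to 0.320) in 84.9 Mb of allowed territory, where the autosomes had 1.26 per Mb. Peaks of all positions were few there, and the distal share, 17 of 69, was not below the autosomal 14.3%. The density of the rest of chromosome X was not worked out. Their median fold was 6.85 and the highest 11.4. The labels used here do not give the sex of the animals.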

How the results depend on the processing

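No paired analysis was possible because the list has no value per library, and no IP fraction could be left out for the same reason. Of 68 alternatives to 8 results, 58 stayed within the error of the reported value (for the count, within 1.5 times), and 10 moved further without a change of direction. The number of distal peaks was 622 with a distance of 100 kb. Among peaks whose −log10 q reached 10 it was 580, and for that stricter set the pileup difference was 0. Elsewhere the pileup difference stayed at 0.94, but its interval reached 0 in most settings, such as 0 to 1.88 at 50 kb. With genes of any biotype excluded the interval was 0.94 to 1.88. The share of autosomal peaks was 16.4% at 20 kb, 11.8% at 50 kb, 8.39% at 100 kb and 18.4% with lncRNA genes ignored. The density ratio was 0.287 at 100 kb and 0.338 with lncRNA genes ignored. The desert ratio was 0.488 with deserts of 500 kb. These follow from the altered definitions, except the pileup value, where the cause was not tested. Differences whose interval includes 0 changed sign under some settings: the median fold difference ran from −0.0402 to 0.266, and that in the share past the fold threshold from −1.61 to 1.72 percentage points. The width difference ran from −11 to −5.5 bp; in the stricter set it had an interval of −17.7 to 2.58 bp. The lowest pileup was 10.3, so weaker distal sites are not in the list at this depth.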
